A study of Saccharomyces cerevisiae with 18 samples.

Results

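The step from 110 to 150 min after glucose-depleted yeast entered fresh medium was measured on 4 of the 18 arrays of a time-course in wild-type Saccharomyces cerevisiae. The 4 arrays hold 2 independent cultures, a and b, each at 110 min and again at 150 min, and every change below is 150 min minus 110 min within a culture. They were chosen by time label alone, and no 0 min array enters any value. Both cultures had been grown for 24 h until glucose was exhausted and were then diluted into fresh medium, although the treatment label of all 4 samples reads glucose depletion. The samples carry the strain label BY4742 and the name wt-matA, with no treatment or allele that sets 110 and 150 min apart. On these 4 arrays the 4 alpha-cell genes averaged between -4.96 and -4.40 on the log2 scale against the reference pool and the 7 a-cell genes between 3.39 and 3.97. LYS2 lay between 3.52 and 4.45 and MET17 between -5.23 and -4.85. BY4742 is an alpha strain that lacks LYS2, so the name matA is borne out by these markers in the samples and the strain label is not.

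Cells that leave stationary phase re-enter the division cycle, and genes with a cell-cycle peak are then expressed in an order: genes for separating the daughter from the mother and for loading the replication helicase at the end of mitosis and in early G1, DNA replication genes at the G1/S transition, and histones in S phase. Membrane phospholipids are built from inositol, choline and serine, and the activators Ino2 and Ino4 drive most of these genes until the repressor Opi1 shuts them off when inositol is plentiful. Biotin is an enzyme cofactor that baker's yeast takes up from the medium or makes from precursors. Genes for vitamins, metals and sulfur are switched mainly by the supply of the nutrient itself.

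Each array compared RNA of 1 culture with a reference RNA, pooled from wild-type yeast and shared by all arrays, so a value is a log2 ratio of sample to reference and 0 means the level of the pool. On the 4 arrays 97.9 to 99.2% of gene spots stood above the local background, and duplicate spots correlated at 0.982 to 0.99. Culture a was always labelled with Cy3 and culture b with Cy5, so culture and dye cannot be told apart. The dye stays the same within each culture, but the authors corrected the dye bias of single genes only in their deletion mutant data. Whether such a bias differed between the 110 and 150 min arrays was not tested. Across the 5270 genes tested, the ratios of the cultures correlated at 0.883 at 110 min and at 0.611 at 150 min (Pearson's r over genes, not over independent replicates). The standard deviation of the difference between cultures was 0.155 at 110 min and 0.343 at 150 min. Over genes the differences at these times correlated at 0.801. The changes of culture a and culture b correlated at 0.228, and 2946 of 5270 genes changed the same way in both.

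The arrays at 150 and 300 min stand apart from those up to 110 min in ways other than the time of sampling. Their sample names write the time in hours, and their array numbers form a run of their own, apart from the run that holds 7.5, 30 and 110 min and from another that holds 3, 15 and 60 min. The interval from 60 to 110 min thus also crosses between runs. No source used here says what these numbers mark. Of 6388 gene probes, 3 were at background brightness on all 12 arrays from 3 to 110 min and bright in both channels on all 4 arrays at 150 and 300 min. They carry the names PRM7, RPP1A and MBA1. The median Cy5 intensity of gene spots was 1.32 and 1.39 times the Cy3 intensity at 110 min in cultures a and b and 2.22 and 2.38 times at 150 min, but some earlier arrays were as high, such as culture b at 7.5 min (2.35) and at 15 min (2.09). This array set and the change from 110 to 150 min cannot be told apart by a fit, and the values at 300 min, from the same array set as 150 min, are therefore given beside the main results.

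Few genes changed. The study's methods call a gene by a fold change over 1.7 together with a p under 0.01 after Benjamini-Hochberg adjustment. With these limits, in a limma fit of all 16 arrays from 3 to 300 min with culture as a block, 3 genes were higher at 150 min (0.0569% of 5270) and 6 were lower (0.114%). The 6 lower genes were OPI3, ALD6, BIO2, BIO3, YGP1 and ITR1, and the 3 higher genes were PRM7, HPF1 and FIT3, of which PRM7 rests on 1 of the 3 probes named above. At a looser threshold, an adjusted p under 0.05 with no fold limit, 72 genes were higher (1.37%) and 122 lower (2.31%), together 194 (3.68%). All 194 changed the same way in both cultures. A gene with opposite changes could hardly pass this fit, so that agreement is no separate support. An unadjusted p under 0.05 was reached by 1012 genes. The looser counts depend on the model and on the 110 min arrays: without the block 13 genes passed, without culture a at 110 min 22 and without culture b at 110 min 18, and with ratios set to the external control spots 54. The median absolute change over all genes was 0.0764, and 95% of genes changed by less than 0.299, both on the log2 scale. In the same model the preceding interval, 60 to 110 min, had 235 genes higher and 88 lower at the stricter thresholds.

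**Figure D1:**
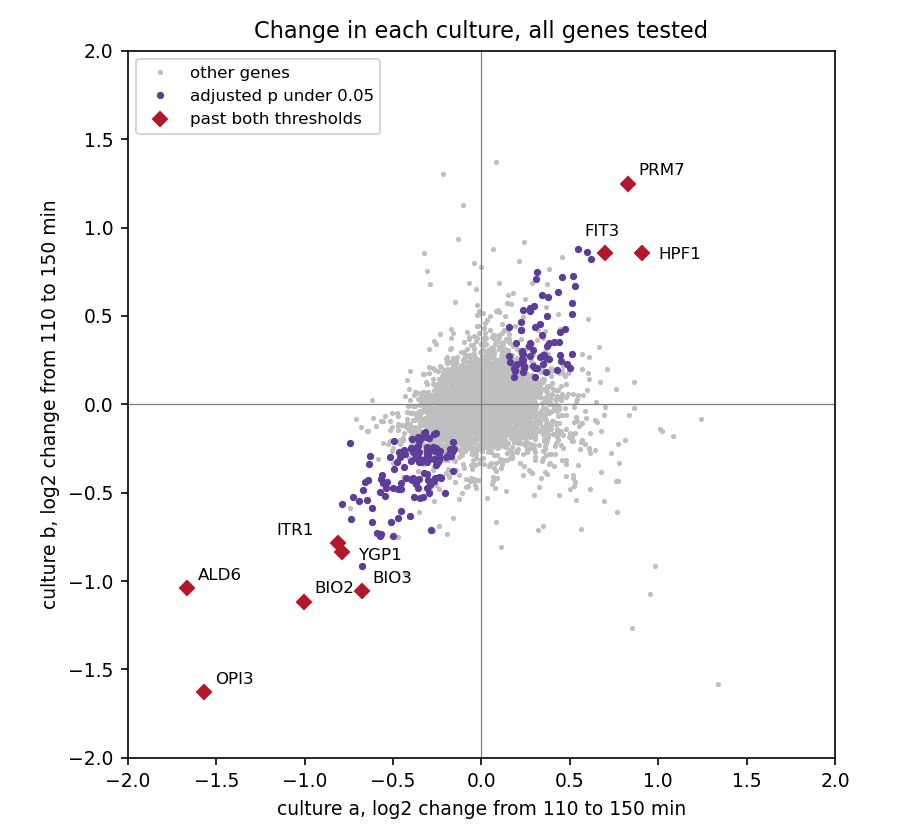
Log2 change from 110 to 150 min in culture a (x axis) and in culture b (y axis) for the 5270 genes tested, with genes at an adjusted p under 0.05 and those past both thresholds marked. OPI3 has the lowest mean change (-1.57 in culture a, -1.63 in b), and ALD6 is lower in culture a (-1.66), while most genes stay within 0.299 of 0, and 4 genes in the lower right lie above 0.8 in culture a and below -0.8 in culture b.

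Some genes of phospholipid synthesis fell, with OPI3 and ITR1 past both thresholds. OPI3 encodes the methyltransferase that makes phosphatidylcholine from its methylated precursors. At 110 min its log2 ratio was -0.63 in culture a and -0.53 in culture b, and by 150 min the ratios were -2.20 and -2.16. The times did not overlap, and OPI3 fell by a mean of 1.60 on the log2 scale, a 3.03-fold decrease (standard error, SE, of the limma fit 0.109, with 2 cultures at each time, adjusted p = 1.58e-04). OPI3 was at -2.71 at 60 min, so the level at 150 min lay near that of 60 min rather than that of 110 min, and at 300 min it was back at -0.22. ITR1, the main inositol transporter, went from -0.26 and -0.055 to -1.07 and -0.84 and fell by 0.80 (SE 0.0701, adjusted p = 3.34e-04). It too was low at 60 min (-1.37) and near the reference at 300 min (-0.076). ITR1 fell just under the fold limit, with a change of -0.73 without culture a at 110 min and -0.74 without culture b at 150 min. In the limma fit without the culture block its adjusted p was 0.194.

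**Figure D2:**
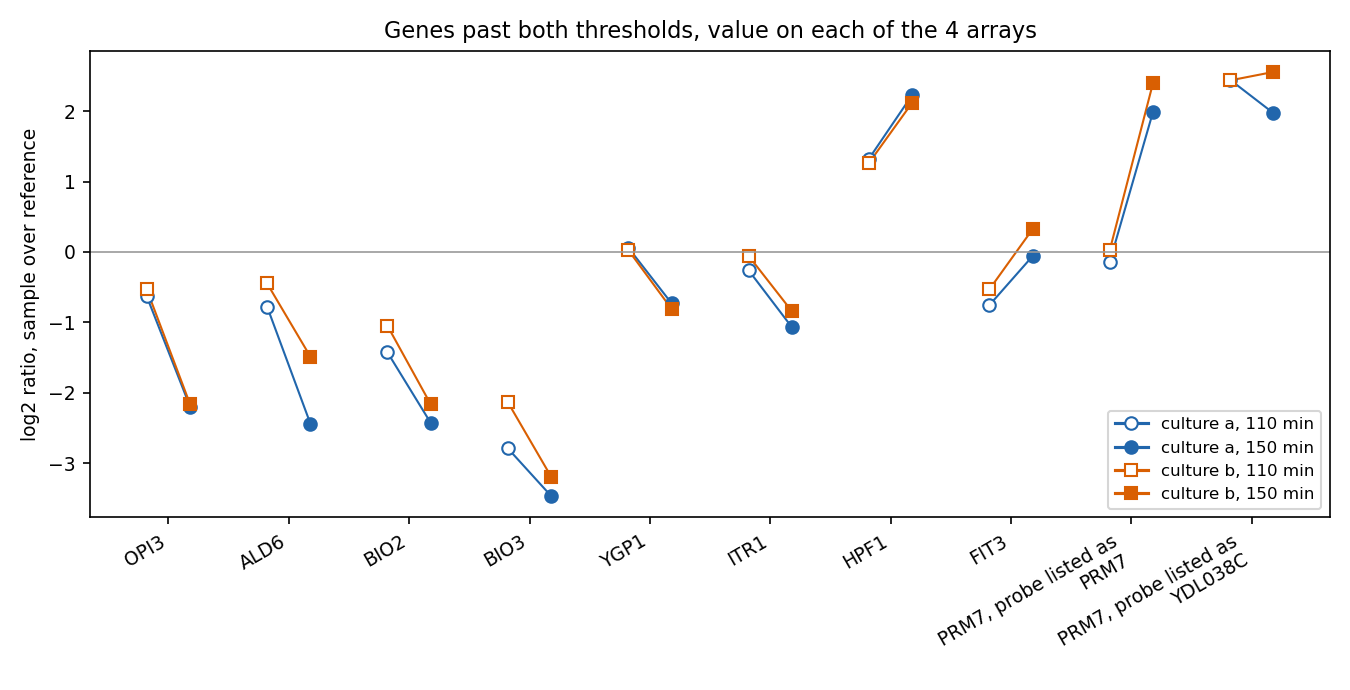
Log2 ratio of sample to reference on each of the 4 arrays for the genes past both thresholds, with culture a as circles and culture b as squares, 110 min open and 150 min filled, and PRM7 drawn by probe. The 110 and 150 min values do not overlap for the 8 genes other than PRM7. The PRM7 probe listed under that name moves from near 0 to 1.99 and 2.40. The probe listed as YDL038C goes from 2.45 to 1.97 in culture a and from 2.44 to 2.56 in culture b.

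Of 22 genes of phospholipid synthesis and precursor uptake, a list put together after the values were seen, 7 fell at the looser threshold and none rose, against 2.31% of all genes lower. The list's median change was -0.29, while that of all genes tested was -0.00099. Besides OPI3 and ITR1 they were the choline kinase gene CKI1 (-0.53, SE 0.073), the choline transporter gene HNM1 (-0.45, SE 0.104), the CDP-diacylglycerol synthase gene CDS1 (-0.41, SE 0.0497), the phosphatidylserine decarboxylase gene PSD1 (-0.37, SE 0.0726) and the activator gene INO2 (-0.32, SE 0.0456). CHO1, which encodes phosphatidylserine synthase, had a change of -0.61 (SE 0.163, adjusted p = 0.0735) and INO1, the inositol synthesis enzyme, by -0.41 (adjusted p = 0.196), and neither passed. At 150 min INO1 was at -1.07 in culture a and at -0.38 in culture b. The second methyltransferase gene CHO2 and the minor inositol transporter gene ITR2 changed by -0.088 and 0.050. Since the 22 genes were listed after the values were seen, their count and median are a description and no test. OPI3 and ITR1 also belong to a list of fatty acid synthesis and desaturation that was not added in this way. Of its 21 measured genes 4 fell at the looser threshold and none rose, with a median of -0.23. Over the 8 times from 3 to 300 min the profiles most like that of OPI3 were those of XPT1 (r = 0.958), a purine salvage enzyme gene, ITR1 (r = 0.944) and CHO1 (r = 0.929), given as a description over 8 time means. In the alternatives that left out a 110 min array, 2 or 3 of the 22 genes passed.

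Biotin genes, already below the reference at 110 min, fell further. BIO2, the biotin synthase gene, had ratios of -1.43 and -1.05 at 110 min and -2.43 and -2.17 at 150 min. It fell by 1.06 on the log2 scale, 2.08-fold (SE 0.0923, adjusted p = 3.34e-04). BIO3, whose product makes a biotin precursor, went from -2.79 and -2.13 to -3.47 and -3.19 and fell by 0.87 (SE 0.132, adjusted p = 0.00774). At 150 min BIO3 was the lowest of the biotin genes relative to the pool. In the limma fit without the culture block its adjusted p was 0.0765. VHT1, the biotin transporter gene, fell by 0.79 (SE 0.152, adjusted p = 0.0202), the precursor transporter gene BIO5 by 0.64 (SE 0.0862, adjusted p = 0.00479) and BIO4, the dethiobiotin synthetase gene, by 0.40 (SE 0.0863, adjusted p = 0.0338), at the looser threshold. BPL1, which attaches biotin to enzymes, changed by -0.027. Thus 5 of 6 genes of a list put together after the values were seen were lower, against 2.31% of all genes, a description and no test. The 5 genes were above the reference at 30 min, with BIO5 at 1.42, were below it at 60 and 110 min, and were again above it at 300 min, with 0.69 for BIO5, 0.53 for BIO3 and 0.37 for BIO2. BIO3 missed the stricter threshold with an adjusted p of 0.0331 and a change of -0.59 when culture b at 110 min was left out, and lost it too without either 150 min array. With either 110 min array left out, 2 of the 6 genes passed the looser threshold.

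ALD6, the cytosolic aldehyde dehydrogenase gene that yields acetate for lipid synthesis, was at -0.78 and -0.45 at 110 min and at -2.44 and -1.49 at 150 min. The times did not overlap, but the cultures differed in the size of the fall. Its mean fall was 1.35, 2.55-fold (SE 0.145, adjusted p = 0.0014). In the limma fit without the culture block its adjusted p was 0.257, past neither threshold. Like the biotin genes it was high at 30 min (1.48), lowest at 150 min and at the reference at 300 min (0.040). Without culture a at 110 min its adjusted p was 0.0232.

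YGP1, a secreted glycoprotein gene induced when nutrients run low, dropped from 0.062 and 0.028 to -0.73 and -0.81. The fall was 0.81 (SE 0.124, adjusted p = 0.00774), and its adjusted p was between 3.77e-04 and 0.098 over the alternatives, and leaving out any of the 4 arrays compared put it outside a threshold. At 300 min YGP1 was at -0.15. YGP1 belongs to a list of 46 targets of Msn2 and Msn4, the activators of the general stress response, of which 7 fell at the looser threshold and none rose, against 2.31% of all genes lower. The list's median change was -0.10, and culture a alone had -0.25 and culture b -0.045. Over the alternatives the median ran from -0.21 to -0.012, and not every alternative was without members that rose. The other members that fell were the nicotinamidase gene PNC1 (-0.62, SE 0.0907), the hexokinase gene HXK1 (-0.48, SE 0.0991), DCS1 (-0.48, SE 0.0728), the catalase gene CTT1 (-0.43, SE 0.0734), GRE3 (-0.36) and ALD2 (-0.24). HSP12, a membrane stress protein gene, had a change of -0.66 without passing (adjusted p = 0.0645), and at 0.58 and 0.41 it was still above the reference at 150 min. With either 110 min array left out, none of the 46 passed.

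Trehalose is a storage sugar and stress protectant. TPS2, which encodes the phosphatase that releases it, went from -0.73 and -0.72 to -1.03 and -1.15 and fell by 0.36 (SE 0.0722, adjusted p = 0.0221). TSL1, a large subunit of the synthase complex, went from -0.57 and -0.54 to -1.22 and -0.96 and fell by 0.53 (SE 0.101, adjusted p = 0.0191). These 2 of 7 trehalose genes passed the looser threshold, against 2.31% of all genes lower, and none did with either 110 min array left out. The synthase gene TPS1 changed by -0.29 (adjusted p = 0.0627), TPS3, its other regulatory subunit, by -0.30 (adjusted p = 0.135), and the trehalase genes NTH1, NTH2 and ATH1 by -0.15, -0.10 and 0.11. The glycogen synthase gene GSY2 fell by 0.51 (SE 0.0694, adjusted p = 0.00515), the 1 of 14 glycogen genes that passed. BCY1, the inhibitory subunit of protein kinase A, fell by 0.40 (SE 0.0701, adjusted p = 0.0145) and TPK2, a catalytic subunit, by 0.29 (SE 0.0623, adjusted p = 0.0338), 2 of 36 genes of the nutrient signalling list. Against 2.31% of all genes lower, the glycogen count (1 of 14) and the signalling count (2 of 36) lie close to the background.

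Among the functional lists, that of daughter-cell separation and early G1 held the most genes that fell. Of 22 measured members 10 were lower at the looser threshold and none higher, 45.5% of the list against 2.31% of all genes. Their median change was -0.34, and culture a alone had -0.31 and culture b -0.44. DSE4, a glucanase that opens the septum from the daughter side, had ratios of -0.12 and -0.29 at 110 min and -0.62 and -1.04 at 150 min (change -0.62, SE 0.0758, adjusted p = 0.00269). PIR1, a cell wall protein gene, went from 0.19 and 0.075 to -0.43 and -0.51 (change -0.60, SE 0.0882, adjusted p = 0.00763). For both genes each 150 min value lay below each 110 min value. EGT2 (-0.54), NIS1 (-0.50), the daughter-specific repressor gene ASH1 (-0.50), the transcription factor gene TEC1 (-0.49), SCW11 (-0.47), the cyclin gene PCL9 (-0.47), DSE1 (-0.35) and DSE3 (-0.35) were the others. The chitinase gene CTS1 changed by -0.30 and the inhibitor gene SIC1 by -0.28, and neither passed. The median ratio of the list had been -0.65 at 60 min, went from 0.040 to -0.31 over the interval, and stood at -0.017 by 300 min. The count fell to 2 without culture a at 110 min and to 1 without culture b at 110 min, with medians that stayed between -0.41 and -0.26 over the alternatives.

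All 7 genes of the MCM helicase and its loader had a negative change, with a median of -0.25, and 3 of them fell at the looser threshold, against 2.31% of all genes. These were MCM5, from 0.21 and 0.35 to -0.054 and -0.072 (SE 0.0718, adjusted p = 0.0297), the loader gene CDC6 (-0.32, SE 0.066) and MCM4 (-0.22, SE 0.0525). None passed with either 110 min array left out. Of 44 genes of the G1/S transition 2 rose, namely CDC45 (0.30, SE 0.0532, adjusted p = 0.0152), which activates the helicase, and CTF18 (0.32, SE 0.0669, adjusted p = 0.0297), part of a clamp loader. Of all genes 1.37% were higher, and over the alternatives the number of the 44 that rose ran from 0 to 2. The mannosyltransferase gene MNN1, on the same list, fell by 0.33 (SE 0.054). The list's median was 0.066, and 35 of 44 mean changes were positive against 2621 of 5270. In both cultures alike 20 of the 44 rose and 9 fell, against 1359 and 1587 of the 5270. At 60 min CDC45 had been at 0.85, and at 300 min it was at -0.016.

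Of the histone genes HHF1, which encodes histone H4, rose from -0.13 and -0.049 to 0.24 and 0.28 (change 0.35, SE 0.0674, adjusted p = 0.0204). The second H4 gene HHF2 changed by 0.28 with an adjusted p of 0.343, and since the coding sequences of the pair are nearly alike their probes may share signal. The H2A genes HTA1 and HTA2 changed by 0.23 and 0.11, the H2B genes HTB1 and HTB2 by 0.0015 and 0.24, and the H3 genes HHT1 and HHT2 by 0.20 and 0.078, and none passed. On at least 1 of the 4 arrays 5 of the 10 histone genes were saturated. The G1 cyclin genes CLN1, CLN2 and CLN3 changed by 0.027, 0.016 and -0.19, the S phase cyclin genes CLB5 and CLB6 by 0.061 and 0.12, and the mitotic cyclin genes CLB1 and CLB2 by -0.12 and -0.27. None of these 7 passed, with the lowest adjusted p at 0.106 for CLB2, nor did any of the 23 genes of the mitotic Clb2 cluster, whose median was -0.072.

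**Figure D3:**
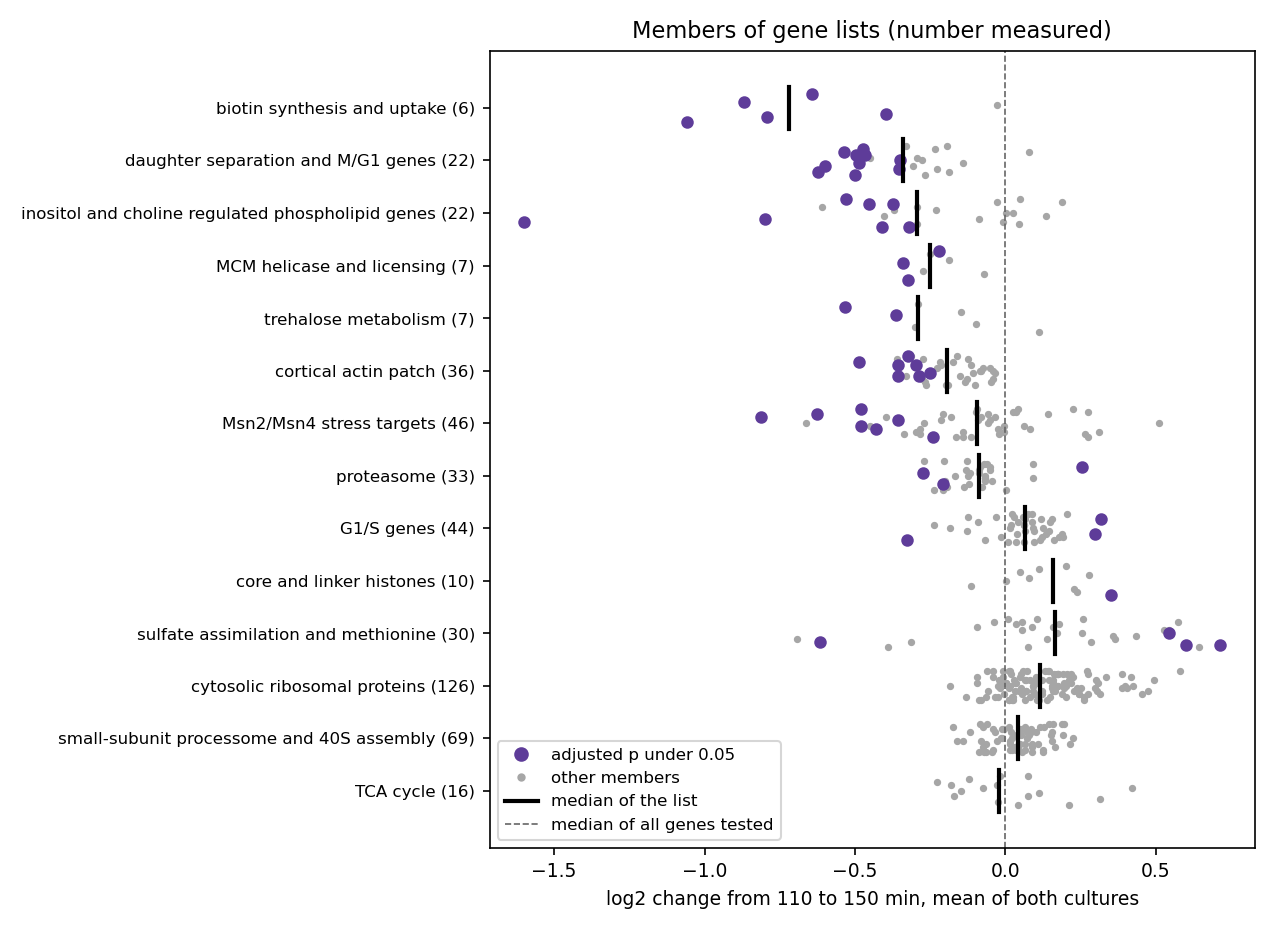
Log2 change from 110 to 150 min of the members of 14 gene lists, a point for each gene, with members at an adjusted p under 0.05 in purple, the list's median as a bar and the median of all 5270 genes as a dashed line. Biotin, daughter separation, phospholipid, helicase and actin patch genes lie to the left, while ribosome assembly and TCA cycle genes centre on 0. The biotin, phospholipid and actin patch lists were put together after the values were seen, so their position is no test.

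Genes of the cortical actin patch, the site of endocytosis, also lay on the negative side. Of all genes, 2649 of 5270 changes were negative and 2.31% were lower at the looser threshold. In a list of 36 put together after the values were seen all 36 changes were negative. Because of that choice the comparison with all genes is a description and no test. The median of the 36 was -0.20, and 7 passed the looser threshold. They were BBC1 (-0.49, SE 0.0906), the capping protein gene CAP2 (-0.36, SE 0.085), ARC15 (-0.36, SE 0.053) and ARC18 (-0.32, SE 0.0699) of the complex that nucleates branched actin, VRP1 (-0.30, SE 0.0647), YSC84 (-0.29, SE 0.0536) and SYP1 (-0.25, SE 0.0568). None of the 36 passed with either 110 min array left out. In the wall, the glucan remodelling genes PST1 (-0.49, SE 0.0597), UTR2 (-0.45, SE 0.0894) and the chitin synthase gene CHS1 (-0.39, SE 0.0584) fell, 3 of 34. Of 30 mating genes FUS1, needed for cell fusion, fell by 0.33 (SE 0.0728), the kinase gene FUS3 by 0.31 (SE 0.062) and PRM8 by 0.22. The agglutinin gene AGA1 (-0.53, adjusted p = 0.0785) and the arrest gene FAR1 (-0.48, adjusted p = 0.087) had larger changes that did not pass.

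HPF1 rose most among the genes with a single probe. It encodes a cell wall mannoprotein. Its ratio was 1.32 and 1.26 at 110 min and 2.23 and 2.12 at 150 min, so that every 150 min value exceeded every 110 min value. The rise was 0.88, 1.84-fold (SE 0.0719, adjusted p = 3.12e-04), and HPF1 kept its call in all 16 alternatives. The looser threshold alone could not remove that call, and the alternatives on probes and names left the change at 0.88. HPF1 had been below the reference from 3 to 60 min (-1.34 and -0.23 at these times) and was at -0.12 at 300 min. FIT3, a wall mannoprotein gene that helps to retain iron-carrying siderophores, went from -0.76 and -0.53 to -0.058 and 0.33, a rise of 0.78, 1.71-fold (SE 0.0848, adjusted p = 0.00149). At 300 min FIT3 was at -0.49, and in the limma fit without the culture block its adjusted p was 0.154. Its relative FIT2 rose by 0.45 (SE 0.107, adjusted p = 0.0472), while the third member FIT1 changed by -0.046. FIT3 and FIT2 were the 2 of 27 iron uptake genes that rose, against 1.37% of all genes. The median of all 27 was 0.045, and 19 of the changes were positive and 8 negative, with FET3 at -0.18 and FRE1 at -0.29. VHT1, which this list also holds, fell as given above. FIT3 had an adjusted p of 0.0197 without culture a at 110 min, 0.0331 without culture b at 110 min and 0.0137 without culture b at 150 min.

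Further genes for transport and metabolism rose at the looser threshold. MCH5, the riboflavin transporter gene, went from 0.33 and 0.31 to 0.93 and 1.17 (change 0.73, SE 0.0643, adjusted p = 3.34e-04). CHA1, the serine and threonine deaminase gene, went from 0.35 and 0.18 to 0.97 and 1.0 (change 0.72, SE 0.0719, adjusted p = 9.32e-04). The fold change of each was under the 1.7 limit (1.66 and 1.65). ZRT1, the high-affinity zinc transporter gene, rose by 0.62 (SE 0.115, adjusted p = 0.0178) and the zinc-responsive IZH4 by 0.40 (SE 0.0558, adjusted p = 0.00618), 2 of 14 copper and zinc genes, against 1.37% of all genes higher. Neither passed with either 110 min array left out. BNA2, BNA1 and BNA4, enzymes that turn tryptophan towards NAD, rose by 0.54, 0.43 and 0.38 (SE 0.109, 0.0737 and 0.0455), and the nicotinic acid transporter gene TNA1 by 0.30 (SE 0.0532), 4 of 10 genes of a list put together after the values were seen. PNC1, of the same list, fell as given above, and BNA5, BNA6 and BNA3 changed by 0.12, 0.042 and -0.073.

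Sulfur genes moved both ways. Of 30 genes of sulfate assimilation and methionine 3 rose and 1 fell at the looser threshold, against 1.37% of all genes higher and 2.31% lower. The median change was 0.17, and over the alternatives the number that rose ran from 0 to 8. MET2, which primes homoserine for sulfur uptake, went from 0.21 and 0.22 to 0.76 and 1.10 (change 0.71, SE 0.114, adjusted p = 0.00973). The S-methylmethionine permease gene MMP1 rose by 0.60 (SE 0.0944) and its partner methyltransferase gene MHT1 by 0.55 (SE 0.0638). MET3, MET14 and MET10, which act in sulfate reduction, had changes of 0.64, 0.57 and 0.54 that did not pass (adjusted p = 0.0808, 0.11 and 0.0868). The methylenetetrahydrofolate reductase gene MET13 fell by 0.62 (SE 0.116, adjusted p = 0.0179), and SAM2, the S-adenosylmethionine synthetase gene, changed by -0.69 without passing (adjusted p = 0.0894). Of the branched-chain genes, the aminotransferase gene BAT2 rose by 0.48 (SE 0.0734, adjusted p = 0.00791), 1 of 12, against 1.37% of all genes higher. The decarboxylase gene ARO10 was at 0.20 and then 1.58 in culture b against 0.18 and then 0.27 in culture a, and did not pass (adjusted p = 0.203). The heat shock gene SSA4 rose by 0.49 (SE 0.0807, adjusted p = 0.0108), and HSP30 was at -0.22 and 1.34 at 150 min, against values near 0 at 110 min, and did not pass (adjusted p = 0.374).

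Single members of other lists passed the looser threshold as well, to be read against the shares over all genes (1.37% higher, 2.31% lower). GTT1, a glutathione transferase gene, fell by 0.55 (SE 0.095, adjusted p = 0.0136), and with CTT1 and the transcription factor gene SKN7 (-0.25) it made 3 of 35 oxidative defence genes. PEP4, the vacuolar protease A gene, fell by 0.46 (SE 0.086) and ATG29 by 0.32 (SE 0.0511), while ATG10 rose by 0.23, all from the 25 autophagy genes. ERG3, a sterol desaturase gene, rose by 0.42 (SE 0.0689, adjusted p = 0.0102), the 1 of 28 ergosterol genes that passed. In the phosphate list the phosphatase gene PHO3 fell by 0.44 (SE 0.076), and SPL2 (0.41) and PHM6 (0.30) rose. Of the 33 genes of the proteasome list, RPN4, the activator of proteasome genes, rose by 0.25, while the subunit genes PRE4 and RPN12 fell by 0.27 and 0.21. PIL1, the main eisosome protein gene, fell by 0.43 (SE 0.0918, adjusted p = 0.0323), 1 of 9 of a list put together after the values were seen. In the one-carbon list, of the same kind, the glycine cleavage gene GCV1 (0.36) and MTD1 (0.39), a folate dehydrogenase gene, rose together with CHA1, and MET13 fell, 4 of 13.

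PRM7 had the largest fitted rise (1.04, SE 0.081, adjusted p = 3.01e-04), but its 2 probes disagreed. The probe listed under its own name had ratios of -0.14 and 0.023 at 110 min and 1.99 and 2.40 at 150 min. At 110 min its intensities were 60.8 in Cy5 and 41.7 in Cy3 in culture a, and at 150 min they were 978 and 1768. Its reference channel therefore brightened as well, although every array carries the label of the same reference pool. The probe listed as YDL038C, a reading frame now counted to PRM7, was bright at both times and had ratios of 2.45 and 2.44 at 110 min and 1.97 and 2.56 at 150 min, a mean change of -0.18. With the probe that lacked signal left out, PRM7 changed by -0.18 (adjusted p = 0.433), and 2 genes were higher past both thresholds. At 300 min, on arrays of the same run as 150 min, the mean ratio of PRM7 over both probes was 1.97, against 2.23 at 150 min. The values of RPP1A and MBA1 at 110 min have the same limit. The profiles most like that of PRM7 over the 8 times were those of NUP60 (r = 0.871), CDA1 (r = 0.825) and NUP57 (r = 0.787), and the likeness rests on the same probe.

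For 20 of 55 lists no member passed at the looser threshold, and their medians lay between -0.17 and 0.12. Ribosome assembly genes were among them, with medians of 0.043 over 69 small-subunit and 0.047 over 79 large-subunit factors, as were TCA cycle (-0.021, 16 genes), mitochondrial ribosomal protein (-0.024, 69) and hexose transport genes (0.039, 20). The hexose transporter gene HXT5 had 0.041 and 0.75 at 150 min against -0.17 and -0.060 at 110 min without passing (adjusted p = 0.101). For the 126 cytosolic ribosomal protein genes the median change was 0.29 in culture a and -0.042 in culture b, and 113 of them were saturated on at least 1 of the 4 arrays. The 19 glycolytic and fermentation genes likewise had medians of 0.26 and 0.020, with 15 saturated on at least 1 array, and the values of these abundant transcripts carry that limit. The glucose signature of the study lists genes that were up or down in its low glucose group of deletion mutants, which are separate samples from these. Of 324 measured genes listed as upregulated there, 1 rose (0.309%) and 2 fell (0.617%) at the looser threshold, both below the shares of all genes (1.37% and 2.31%). Of 441 listed as downregulated, 6 rose (1.36%, near the 1.37% of all genes). In the same list 31 fell (7.03% against 2.31% of all genes), OPI3 among them, and its median was -0.079. With either 110 min array left out 3 of the 441 fell and none rose, and over the alternatives the count ran from 2 to 38 lower and the median from -0.10 to 0.0053.

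Whether the change from 110 to 150 min differed from that of the preceding interval was tested directly, as the change from 110 to 150 min minus the change from 60 to 110 min, which counts the 110 min arrays in both and spans all 3 array runs. It passed both thresholds for 452 of 5270 genes (8.58%), 117 with a more positive and 335 with a more negative value. Among the 9 genes above, OPI3 (-3.72, SE 0.188, adjusted p = 1.18e-06), YGP1 (-2.23, SE 0.215), ITR1 (-2.01, SE 0.121) and ALD6 (-1.07, SE 0.251) were among the negative ones and FIT3 (2.39, SE 0.147) among the positive. OPI3, ITR1 and YGP1 had higher mean ratios at 110 than at 60 min, with YGP1 at -1.37 and then 0.045, whereas ALD6 was at -0.33 and then -0.61. PRM7 also passed (1.28, SE 0.14), with the limit of its probe given above. For BIO2 and BIO3 the difference did not pass (adjusted p = 0.0559 and 0.137), both having lower mean ratios at 110 than at 60 min as well. HPF1, whose mean ratio was -0.23 at 60 min and 1.29 at 110 min, had -0.65 (SE 0.125, adjusted p = 0.00285) and missed the fold limit.

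**Figure D4:**
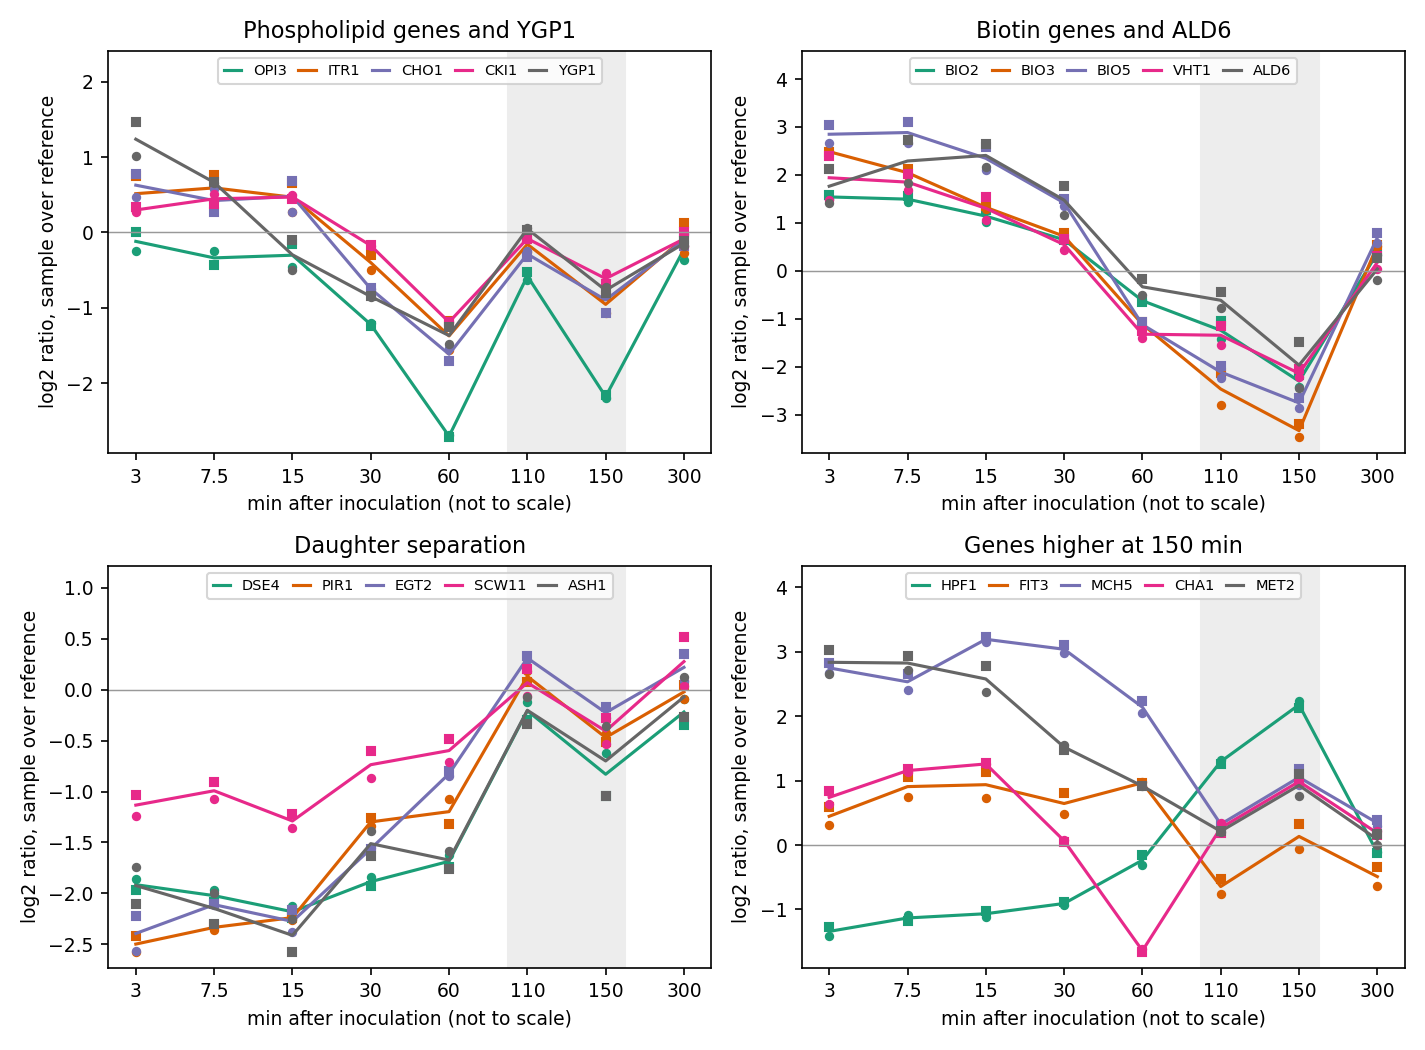
Log2 ratio of sample to reference from 3 to 300 min for 4 sets of genes, with lines through the mean of the cultures, circles for culture a, squares for culture b, and the interval from 110 to 150 min shaded. OPI3 is low at 60 and 150 min (-2.71 and -2.18) and high at 110 and 300 min, the biotin genes are lowest at 150 min, and HPF1 is highest there (2.18).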

How the data were processed

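The arrays carry long oligonucleotide probes printed in duplicate. The authors took mean spot intensities without background subtraction, normalized each array by print-tip loess (span 0.4) and deposited log2 ratios, which were turned here to sample over reference and averaged over the spots of a gene. The deposited scanner intensities served for the checks of brightness and saturation and for alternatives. Per the labels, limma 2.12.0 was used upstream. The dye bias of single genes was not corrected by the authors in the time-course. The authors also left out mitochondrial genes, transposable elements and YDL196W, 44 probes here, and 1062 of 6388 gene probes without a name were not used.

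The 5270 genes were fitted with limma 3.58.1 in R 4.3.3 (lmFit, eBayes) on 16 arrays from 3 to 300 min, with time as a factor and culture as a block (7 residual degrees of freedom), and p-values were adjusted over all genes by the Benjamini-Hochberg method. The pairing comes from the same cultures being sampled at each time. Over the 28 pairs of times, deviations of the cultures correlated at 0.368 to 0.902. Saturation was called from 2 raised to the power 15. The number of arrays limits the precision.

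Genes past both thresholds were all named, besides up to 4 members of each list, all histones, 7 cyclins and the trehalose genes. Genes named at the looser threshold beyond that rule were chosen after their values were seen. All members and lists were chosen with earlier results of these data known, and 6 of 55 lists were added after the values were seen. The shares of these 6 lists beside those of all genes are descriptions and no tests. The alternatives covered the block, the arrays fitted, normalization, probes and each array left out. The script was tested on simulated data.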

Additional observations from a re-analysis of the deposited data

Results flagged for a closer look

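For 452 genes the change from 110 to 150 min differed from the change from 60 to 110 min by the test of the difference itself, at both thresholds with limma. Both changes use the 110 min arrays, and the 60, 110 and 150 min arrays lie in 3 different runs of array numbers, which cannot be told apart from time. Of the genes called from 110 to 150 min, OPI3 had a difference of -3.72, YGP1 of -2.23, ITR1 of -2.01 and ALD6 of -1.07 on the log2 scale, and FIT3 had one of 2.39. For PRM7 the difference was 1.28, and it rests on the probe that was at background brightness on every array from 3 to 110 min.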

How the results depend on the processing

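With 2 cultures at each time, both the counts and the calls of named genes moved with the model. Of the 194 genes at the looser threshold, 13 also passed it without the block and 42 with ratios shifted to the external control spots. Of the 9 genes past both thresholds, 3 kept their call without the block. OPI3, HPF1 and BIO2 kept their calls in all 16 alternatives, of which the looser threshold alone could not remove a call. Without the block, 1 gene was higher and 2 were lower past both thresholds, 6 were higher and 7 lower at the looser one, and 275 passed the test against the preceding interval. In a fit of the 4 arrays alone, in which that test could not be fitted, 19 were higher and 41 lower at the looser threshold. With ratios shifted to the external control spots, which moved the median of all genes by 0.083, 6 were higher past both thresholds, and 31 were higher and 23 lower at the looser one. At an adjusted p under 0.05 with no fold limit 72 were higher, 122 lower, and 1745 passed the test against the preceding interval. Leaving out each array in turn gave 2 to 7 genes higher and 3 to 4 lower, 328 to 494 in the test against the preceding interval, and 8 to 95 higher and 10 to 116 lower at the looser threshold. PRM7 reversed to -0.18 with its brighter probe kept and with the 3 probes that lacked signal left out, which was chosen after seeing the data. For the genes past both thresholds 118 of the alternative values kept their call and 23 lost it, the 118 including those under the looser threshold alone. The cause was not tested. Saturation limits ribosomal protein and glycolytic genes, whose spots are the brightest.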

Other observations

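In 4 genes the cultures moved in opposite directions by more than 0.8 on the log2 scale, against 5 genes that moved that far in the same direction. The 5 include PRM7, with the limit of its probe given above. PKH2, a kinase gene, changed by 1.34 in culture a and -1.58 in culture b, RIF2, a telomere gene, by 0.95 and -1.07, the transcription factor gene YAP6 by 0.98 and -0.91, and YDL177C by 0.85 and -1.27. At 300 min, on arrays of the same run as 150 min, PKH2 was at 0.82 in culture a and -1.52 in culture b. RIF2 was then at 0.81 and -1.20, YAP6 at 0.74 and -1.04, and YDL177C at 0.77 and -1.41. The fitted mean change of PKH2 was -0.12 with an adjusted p of 0.956. Culture and dye cannot be told apart in these values.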
